A study of Oryza sativa with 51 samples.

Results

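The plasma membrane intrinsic proteins (PIPs) are the aquaporins of the plant cell surface, and 8 of their genes were followed here by locus identifier among the 34653 loci of the deposited expression table. They were PIP1-1 (OsPIP1;1, LOC_Os02g44630), PIP1-2 (OsPIP1;2, LOC_Os04g47220), PIP1-3 (OsPIP1;3, LOC_Os02g57720), PIP2-1 (OsPIP2;1, LOC_Os07g26690), PIP2-2 (OsPIP2;2, LOC_Os02g41860), PIP2-4 (OsPIP2;4, LOC_Os07g26630), PIP2-6 (OsPIP2;6, LOC_Os04g16450) and PIP2-7 (OsPIP2;7, LOC_Os09g36930). Messenger RNA was sequenced from flag leaves of field-grown rice at grain filling in 3 lines with no labelled transgene or treatment: the super-hybrid LY2186 and its parents, the sterile line SE21s and MH86, a restorer line, all planted together. Each line gave 17 libraries, 1 every 3 h from Zeitgeber time (ZT) 0 to ZT48, 51 in all. No light schedule is labelled, so hours are counted from ZT0 and the hour of day is ZT modulo 24 h. Whether the libraries came from separate plants is not said either, so library-to-library spread may be technical. With 1 library per line and time, p-values of fitted models rest on the scatter of libraries about the model. Depending on the test, that scatter also holds misfit of the daily curve, line differences that change with time, or change between days.

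Aquaporins are channels that let water, and for some members small solutes such as carbon dioxide or hydrogen peroxide, cross a membrane along its gradient. PIP2 proteins are generally active water channels on their own, whereas many PIP1 proteins reach the plasma membrane or gain water channel activity when they assemble with a PIP2 partner, as known from maize. In leaves, PIPs are studied for their part in the water conductance of veins and mesophyll, which in many plants changes over the day.

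All 8 genes passed the expression filter, which asked for a mean FPKM (fragments per transcript length and library total) of 1 or more and kept 16842 loci. Summed FPKM of a whole library ran from 824871 to 2467820, of which the top 3 loci took 24.6% to 68.6%, and the number of fragments behind a value is unknown. The leaf identity of the samples was read from 6 leaf markers, which were all detected in every line and summed to between 5908 and 50233 FPKM per library. Markers of grain summed to between 1.98 and 48.5 FPKM per library and those of floral organs to between 7.38 and 41.9 FPKM. Root markers summed to between 3.07 and 20.9 FPKM, nearly all from LOC_Os02g51110, which is itself an aquaporin locus and had a mean of 9.20 FPKM in SE21s. The other root markers, LOC_Os03g01700 and LOC_Os02g02170, had means of at most 0.0296 FPKM in any line.

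Levels of the 8 genes spanned 3 orders of magnitude. PIP1-2, which in rice has been linked to the conductance of mesophyll for carbon dioxide, was the most abundant, with a mean of 949 ± 620 FPKM in SE21s, 662 ± 455 FPKM in LY2186 and 784 ± 629 FPKM in MH86 (SD, n = 17 times, so the SD includes the daily curve). Its libraries ran from 182 through a median of 849 to 1900.1 FPKM in SE21s, from 173 through 645 to 1726 FPKM in LY2186 and from 169 through 529 to 2082 FPKM in MH86. PIP1-1 came next at 470.5 ± 338, 370 ± 326 and 342 ± 327 FPKM in the same order of lines. PIP1-2 exceeded PIP1-1 in 17 of 17 libraries of each line, but each time is 1 library per line and some gaps were small. In LY2186 at ZT27, for example, PIP1-2 stood at 903 FPKM and PIP1-1 at 851 FPKM.

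PIP2-1, the PIP2 gene of rice best known for water uptake by roots, averaged 204 ± 174 FPKM in SE21s, 112 ± 102 FPKM in LY2186 and 86.6 ± 82.6 FPKM in MH86. PIP2-7 averaged 303 ± 398 FPKM, 142 ± 213 FPKM and 159 ± 242 FPKM, with SDs above the means because it was nearly off for part of each day. PIP1-3, also named RWC3 and studied for its response to drought, averaged 65.4 ± 48.8, 31.5 ± 25.6 and 59.1 ± 53.4 FPKM. PIP2-2 averaged 44.7 ± 34.0, 43.7 ± 51.7 and 38.5 ± 48.96 FPKM. PIP2-6 averaged 9.29 ± 5.25, 14.3 ± 6.76 and 13.9 ± 7.70 FPKM. PIP2-4, an active water channel when its protein is made in yeast, was the lowest at 1.19 ± 1.84, 1.11 ± 1.89 and 2.09 ± 2.84 FPKM, and was listed at 0 in 7, 4 and 2 libraries.

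The order of levels on the log2 scale was tested between neighbours in each line by a permutation test of 100000 sign flips over the 17 libraries, two-sided and adjusted over 21 neighbour pairs. Neighbours were set by ranking the mean levels in those same libraries, and the p-values take no account of that choice. PIP1-2 lay above PIP1-1, and PIP1-1 above PIP2-1, in every line, each with an adjusted permutation p of 7.87e-05. PIP2-6 lay above PIP2-4 in every line, with adjusted permutation p-values from 7.87e-05 to 0.000115. PIP2-7 could not be placed, because its neighbours were above it at some hours and below it at others. It followed PIP2-1 by 0.51 ± 4.07 (log2, SD, n = 17) in SE21s, where PIP2-1 was higher in 9 of 17 libraries and the adjusted permutation p was 0.66. In SE21s, PIP1-3 lay above PIP2-2 (adjusted permutation p = 0.000105) and PIP2-2 above PIP2-6 (7.87e-05), whereas in LY2186 and MH86 no neighbours from PIP2-1 to PIP2-6 were separated. In linear FPKM, 3 more pairs passed, PIP2-7 over PIP1-3 in SE21s (adjusted permutation p = 0.0481), PIP1-3 over PIP2-6 in LY2186 (0.0444) and PIP2-1 over PIP1-3 in MH86 (0.0173). Successive times of a line are not independent, and these p-values take them as if they were.

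**Figure D1:**
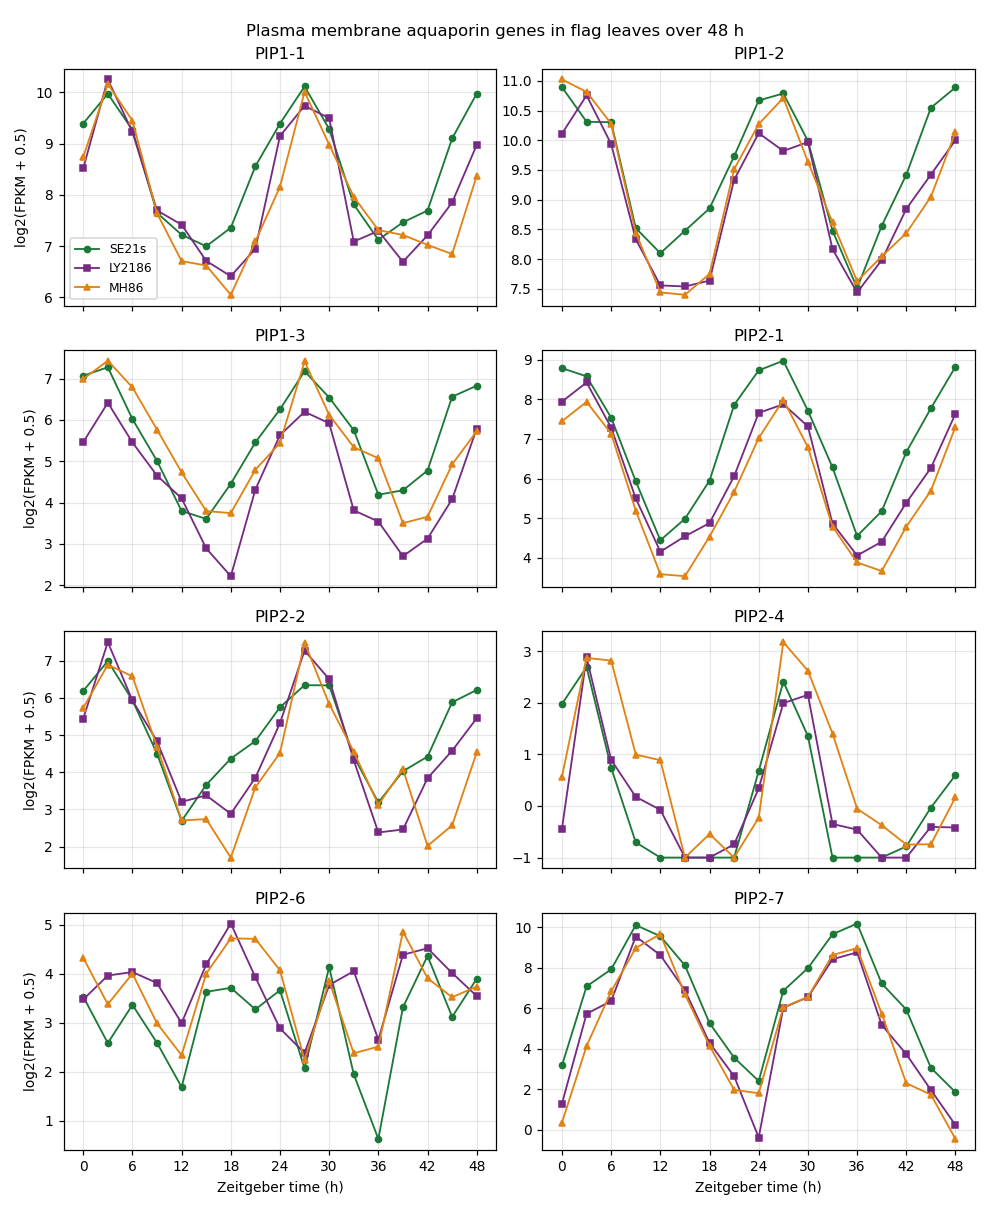
Level of each of the 8 genes as log2(FPKM + 0.5) against Zeitgeber time in h, 1 point per library, with green circles for SE21s, purple squares for LY2186 and orange triangles for MH86. PIP1-1, PIP1-2, PIP1-3, PIP2-1, PIP2-2 and PIP2-4 are high at hour 3 of each day and lower at hours 12 to 18, whereas PIP2-7 is high near hours 9 to 12 and low at hour 0.

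The first question was how each gene moved through the day. A 24 h cosine curve was called (adjusted p below 0.05 over all 16842 loci) for 7 of 8 genes in SE21s, 7 in LY2186 and 8 in MH86. Over all loci the share called was 67.5%, 71.1% and 72.1% in the same order, so a call by itself was common in these leaves. All 3 lines gave a call for 7 of the 8 genes, beside 54.4% of loci. Called curves with a trough-to-peak fold of 4 or more belonged to 7 members in every line, against 14.8%, 17% and 15.1% of all loci. The median amplitude of the 8 genes, from the mean of the curve to its peak, was 1.59 (log2) in SE21s, 1.65 in LY2186 and 1.78 in MH86, beside 0.44, 0.49 and 0.48 over all loci tested.

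Of the 8 genes, 6 rose to a peak in the first hours of the day and had their lowest hourly mean between hours 12 and 18, except PIP2-4 in MH86, which was lowest at hour 21 (0.0490 FPKM). Their fitted peaks lay between 0.865 and 2.77 h in SE21s, between 1.86 and 4.73 h in LY2186 and between 2.12 and 5.69 h in MH86. Fitted trough-to-peak folds ran from 7.29 to 19.1 in SE21s, from 6.97 to 17.0 in LY2186 and from 8.73 to 21.2 in MH86. The highest hourly mean stood at hour 3 for each of the 6 in every line, except PIP1-2 in SE21s, which was highest at hour 0.

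Among the PIP1 genes, PIP1-1 averaged 1054 FPKM at hour 3 and 144 FPKM at hour 12 in SE21s, where its libraries ran from 127 through a median of 376 to 1106 FPKM. In LY2186 it fell from 1034 FPKM at hour 3 to 104 FPKM at hour 15, and in MH86 from 1086 FPKM to 97.8 FPKM at hour 18. The hour 3 values of the lines thus lay close together while the lowest mean came at hour 12, 15 or 18. PIP1-3 fell from 149.7 FPKM at hour 3 to 15.4 FPKM at hour 15 in SE21s, from 79.0 to 6.18 FPKM at hour 18 in LY2186 and from 171 to 12.1 FPKM at hour 15 in MH86. The adjusted p of the PIP1 curves was at most 3.62e-06 in any line.

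Among the PIP2 genes, PIP2-1 had the smallest errors, with an amplitude of 2.13 ± 0.09 (log2, SE, 17 libraries) in SE21s, 2.01 ± 0.11 in LY2186 and 2.15 ± 0.09 in MH86. Its libraries ran from 21.2 through a median of 185 to 503 FPKM in SE21s, from 16.1 through 66.1 to 344 FPKM in LY2186 and from 11.1 through 50.1 to 254 FPKM in MH86. The adjusted p was 2.16e-11, 2.1e-09 and 6.27e-11. PIP2-2 fell from 103 FPKM at hour 3 to 7.29 FPKM at hour 12 in SE21s, from 167 to 6.72 FPKM at hour 12 in LY2186 and from 148 to 3.16 FPKM at hour 18 in MH86. PIP2-4 was highest at hour 3, where its mean was 5.38 FPKM in SE21s, 5.16 FPKM in LY2186 and 7.65 FPKM in MH86. In SE21s it was listed at 0 in all libraries of hours 12 and 15, and in LY2186 in all of hours 15 and 18.

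PIP2-7, whose protein lets arsenite as well as water through when tested outside rice, peaked later than these. Its fitted peak fell at 10.2 h in every line, with an SE of 0.282 h for SE21s, 0.366 h for LY2186 and 0.292 h for MH86, and with fitted trough-to-peak folds of 155, 220 and 331. Libraries ran from 3.11 through a median of 136 to 1172 FPKM in SE21s, from 0.263 through 52.6 to 751 FPKM in LY2186 and from 0.226 through 52.8 to 813 FPKM in MH86. At hour 0 the 3 SE21s libraries held 8.54, 4.80 and 3.11 FPKM, those of LY2186 1.95, 0.263 and 0.669 FPKM and those of MH86 0.774, 2.99 and 0.226 FPKM. Every SE21s library at that hour was above every library of the other lines. The adjusted p of the curve was 1.5e-08 in SE21s, 4.75e-07 in LY2186 and 4.01e-08 in MH86.

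PIP2-6, another PIP2 reported to carry arsenite when tested outside rice, had the lowest amplitudes of the 8. Its libraries ran from 1.05 through a median of 9.46 to 20.1 FPKM in SE21s, from 4.72 through 14.7 to 32.1 FPKM in LY2186 and from 4.23 through 13.9 to 28.5 FPKM in MH86. The lowest hour was hour 12 in all lines, at 1.89, 6.64 and 4.89 FPKM, and the highest was hour 18 in SE21s (16.4 FPKM) and LY2186 (27.3 FPKM) and hour 15 in MH86 (22.03 FPKM). A second high point stood at hour 6 in SE21s, where the mean was 13.5 FPKM between 4.60 FPKM at hour 3 and 4.44 FPKM at hour 9. MH86 showed one as well, with 14.7 FPKM at hour 6 between 7.06 and 6.07 FPKM. The 24 h curve was called only in MH86 (amplitude 0.74 ± 0.23, adjusted p = 0.0265), against an adjusted p of 0.0619 in SE21s and 0.186 in LY2186. That difference between lines was not a test of one. The MH86 call was lost without ZT18 (adjusted p = 0.0555), ZT21 (0.0625) or ZT33 (0.0703) and with no expression filter (0.0729), and a call in SE21s appeared without ZT6 (0.0457), ZT27 (0.0471) or ZT30 (0.0135). With a 12 h term added to the curve the gene was called in all lines, with an adjusted p of 0.0218 in SE21s and 0.00515 in LY2186.

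**Figure D2:**
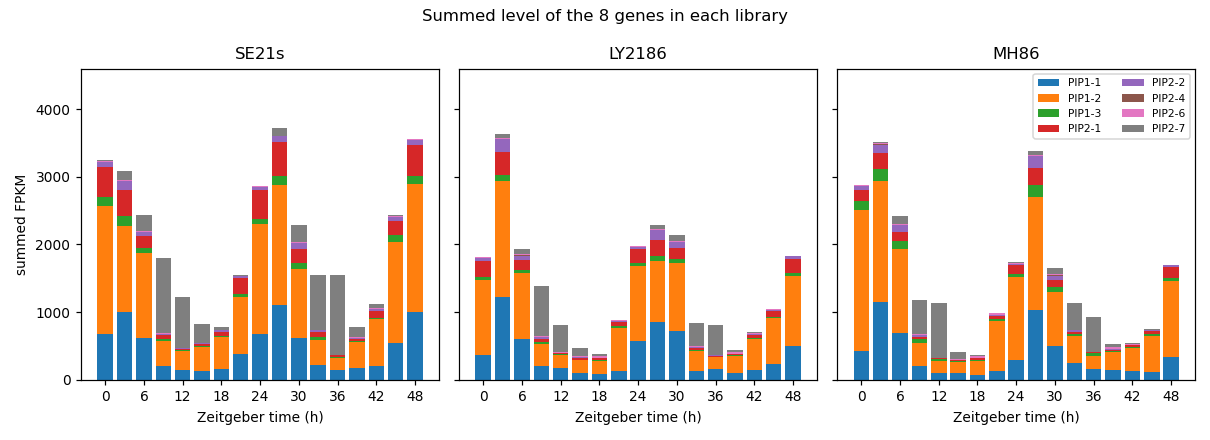
Summed FPKM of the 8 genes in each library against Zeitgeber time in h, in 1 panel per line, with each bar divided by gene. As a mean over days the sum is highest at hour 3 in every line, where the orange PIP1-2 and blue PIP1-1 segments make up most of it, and at hour 12 the grey PIP2-7 segment fills between 49.2% and 75.9% of each bar.

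The summed level of the 8 genes, which FPKM allows because it is per transcript length, averaged over the 17 times 2047.5 FPKM in SE21s, against 1376 FPKM for LY2186 and 1485 FPKM for MH86. Single libraries ran from 779 to 3725 FPKM, from 375 to 3627 FPKM and from 363 to 3511 FPKM. Highest sums of the lines were therefore close together, while the lowest of SE21s was above the lowest of the other lines. Of the summed FPKM, PIP1-2 made up 46.4% (SE21s), 48.1% (LY2186) and 52.8% (MH86), and PIP2-7 made up 14.8%, 10.3% and 10.7%.

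The makeup of the sum turned over within the day. At hour 3 the PIP1 genes together held 79.9% of it in SE21s, 81.7% in LY2186 and 86.8% in MH86. By hour 12 they held 28.8%, 44.5% and 34.5%, and PIP2-7 alone held 68.9%, 51.7% and 63.0%. At hour 21 the PIP1 share was back to 84.9%, 88.7% and 90.6%, with PIP2-7 at 0.526%, 0.484% and 0.362%. The sum itself fell from 3404 FPKM at hour 3 to 806 FPKM at hour 15 in SE21s, from 2958 to 455 FPKM in LY2186, and from 3448 FPKM to its lowest at hour 18, 450.2 FPKM, in MH86. These are levels of messenger RNA, and fewer cells of a type and less RNA per cell cannot be told apart in a leaf sample.

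**Figure D3:**
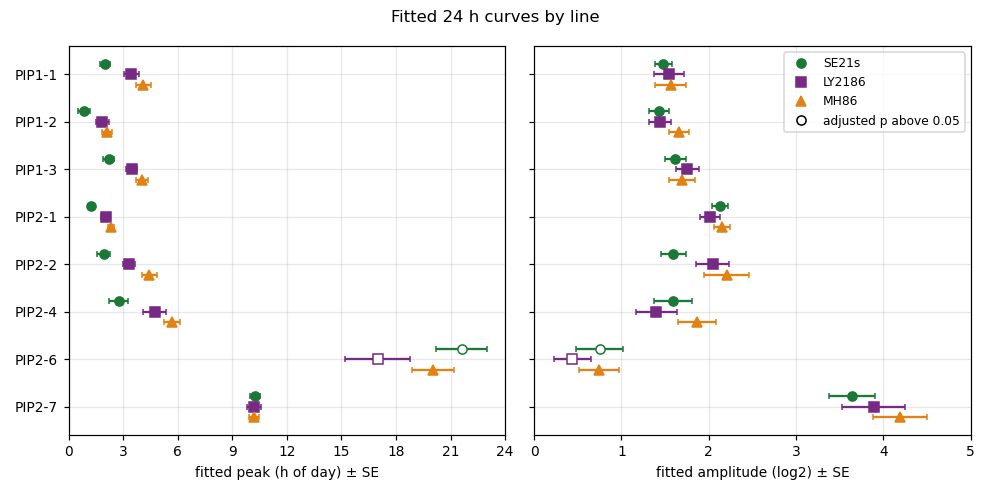
Fitted peak in hours of day (left) and fitted amplitude in log2 units (right) of each gene, with SE bars, in SE21s (green circles), LY2186 (purple squares) and MH86 (orange triangles), where open symbols mark curves with an adjusted p above 0.05. Peaks of the upper 6 genes fall in the order SE21s, LY2186, MH86, and those of PIP2-7 coincide at 10.2 h.

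The next question was whether the daily curves differed between the lines. Between the parents, 6 of 8 genes differed in the curve, amplitude and peak time being tested jointly, against 27.5% of all loci. They were the 6 genes with peaks in the first hours, and the fitted peak of each lay earlier in SE21s than in MH86, by 1.08 to 2.92 h. These are times of a fitted cosine on samples taken every 3 h. The highest hourly mean stood at hour 3 in both parents for all of them but PIP1-2, which in SE21s was highest at hour 0. PIP2-4 differed most in timing, with fitted peaks at 2.77 ± 0.52 h in SE21s and 5.69 ± 0.42 h in MH86 (adjusted p = 3.79e-05). PIP2-2 had fitted peaks at 1.94 ± 0.36 h and 4.45 ± 0.43 h, with amplitudes of 1.60 and 2.20 (log2), and PIP1-1 at 2.003 ± 0.262 h and 4.11 ± 0.411 h. Their adjusted p-values were 0.000474 and 0.000633.

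The fitted peaks of PIP2-1, PIP1-2 and PIP1-3 lay 1.08, 1.25 and 1.85 h earlier in SE21s, with adjusted p-values of 0.000852, 0.00771 and 0.00837. PIP2-7 did not pass, with fitted peaks 0.03 h apart and an adjusted p of 0.243, and neither did PIP2-6 (0.484). The test covers amplitude and timing at once, so its p does not test a shift of the peak alone. All 6 calls held when any 1 time was left out, and on the first day alone 7 genes were called, but on the second day alone 1 was.

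LY2186 lay between its parents in the fitted peak of all 6 genes. Against SE21s, 4 of 8 genes were called, beside 12.6% of all loci, namely PIP2-4 (adjusted p = 0.0191), PIP2-1 (0.0247), PIP1-1 (0.0334) and PIP2-6 (0.0439). The fitted peak of the first of these lay 1.96 h later in LY2186, that of PIP2-1 0.787 h later and that of PIP1-1 1.45 h later. PIP2-6 went the other way, with a fitted peak 4.61 h earlier in LY2186 (17.0 against 21.6 h). Its amplitudes were 0.44 in LY2186 and 0.75 in SE21s, and its 24 h curve was called in neither line (adjusted p = 0.186 and 0.0619). The 4 calls of a difference depended on single times. Their number fell to between 1 and 2 when ZT0, ZT6, ZT9, ZT12, ZT18, ZT21, ZT36, ZT45 or ZT48 was left out, to 2 with no expression filter, to 1 on the first day alone and to 0 on the second.

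Against MH86, limma called 0 of 8 genes in LY2186, beside 2.33% of all loci, with 3 genes at an unadjusted p below 0.05. Fitted peaks of the 6 genes were 0.258 to 1.12 h earlier in LY2186 than in MH86. The comparisons share libraries, so the values of a line recur in them.

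**Figure D4:**
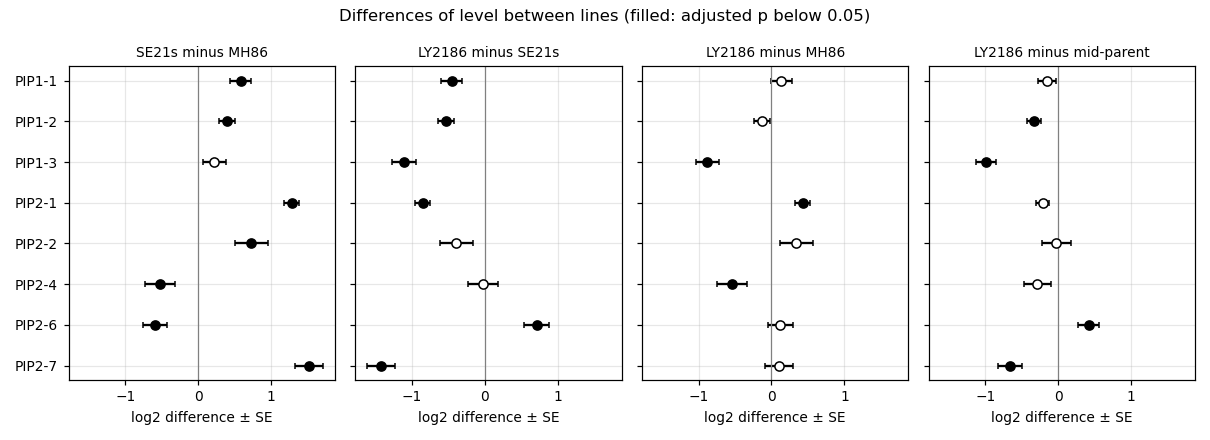
Difference of level between lines in log2 units with SE bars for each gene in 4 comparisons, where filled symbols have an adjusted p below 0.05. PIP2-1 and PIP2-7 lie farthest to the right between SE21s and MH86, and PIP1-3 lies farthest to the left in LY2186 against the mid-parent.

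Levels over the whole series were then compared by a model with a term for each of the 17 times, which sets the lines against each other hour by hour. Of the 8 genes 7 differed between SE21s and MH86, against 69% of all loci. SE21s was higher in 5 and lower in 2, beside 28.6% of loci higher and 40.4% lower. This skew over all loci depended on scaling, since 41.5% of all calls were higher here, 46.9% with quantile scaling and 49.3% with median-ratio scaling. The median difference of the 8 genes was 0.50 (log2), beside -0.08 over all loci. PIP2-7 was 1.52 ± 0.19 higher (log2, SE, higher at 16 of 17 times, adjusted p = 1.25e-08), and PIP2-1 was 1.28 ± 0.11 higher at all 17 times (6.32e-13). As means over the day, PIP2-1 stood at 204 against 86.6 FPKM, a ratio of 2.35, and PIP2-7 at 303 against 159 FPKM, a ratio of 1.91.

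The more abundant PIP1 genes differed by less. PIP1-1 was 0.59 ± 0.14 higher in SE21s (13 of 17 times, adjusted p = 0.000524) and PIP1-2 0.40 ± 0.11 higher (13 of 17 times, 0.00151). With quantile scaling the PIP1-2 difference was 0.18 and was no longer called (0.168). PIP2-2 was 0.73 ± 0.23 higher (11 of 17 times, 0.00513), and PIP1-3 did not pass at 0.23 ± 0.16 (0.217).

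PIP2-6 and PIP2-4 went the other way. PIP2-6 was lower in SE21s by -0.59 ± 0.17 (log2, lower at 14 of 17 times, adjusted p = 0.00244). PIP2-4 differed by -0.52 ± 0.21 (lower at 11 of 17 times, 0.0258), a call that was lost with quantile scaling (0.0639) and without ZT6 (0.0687), ZT9 (0.0623), ZT12 (0.0652), ZT30 (0.0521) or ZT33 (0.0775). The 6 leaf markers moved in the same direction as most of the genes. Their summed level ran from 9524 through a median of 28651 to 50233 FPKM in SE21s, from 9447 through 17276 to 37616 FPKM in LY2186 and from 5908 through 9556 to 21074 FPKM in MH86, and their part in the differences was not tested.

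LY2186 was lower than SE21s in 5 of 8 genes and higher in 1, against 24.5% and 32.8% of all loci, 57.2% together. With quantile scaling 47% of all calls in this comparison were higher, in place of 57.3%. PIP2-7 was -1.42 ± 0.19 (log2, SE) and PIP2-1 -0.85 ± 0.11, each lower at 17 of 17 times, with adjusted p-values of 1.19e-07 and 2.56e-08. PIP1-3 was -1.10 ± 0.16 (lower at 16 of 17 times, 6.3e-07), PIP1-2 -0.53 ± 0.11 (16 of 17 times, 9.64e-05) and PIP1-1 -0.45 ± 0.14 (12 of 17 times, 0.00788). The gene that was higher was PIP2-6, by 0.71 ± 0.17 (13 of 17 times, 0.000537).

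Against MH86, LY2186 differed in 3 of 8 genes, PIP2-1 higher and PIP1-3 and PIP2-4 lower, beside 32.4% of all loci, 14.8% higher and 17.6% lower. PIP2-1 was 0.43 ± 0.11 higher (log2, SE, 16 of 17 times, adjusted p = 0.0018). PIP1-3 was -0.88 ± 0.16 (lower at 15 of 17 times, 5.92e-05). PIP2-4 was -0.54 ± 0.21 (12 of 17 times, 0.0418), and this call was lost without any 1 of 10 times, with differences from -0.55 to -0.46, without ZT6 for example at an adjusted p of 0.0934. It was also lost with a pseudocount of 0.1 (0.0694) and with no expression filter (0.0616).

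The hybrid was set against the mid-parent, the mean of its parents on the log2 scale. PIP1-3 stood apart from the other genes in size, with a mean of 31.5 FPKM against 62.3 FPKM for the mean of the parents, a ratio of 0.506. Its libraries ran from 4.14 through a median of 19.4 to 85.0 FPKM in LY2186, from 11.7 through 53.4 to 155 FPKM in SE21s and from 10.8 through 40.0 to 173 FPKM in MH86. The difference from the mid-parent was -0.99 ± 0.14 (log2, SE), lower at 17 of 17 times, with an adjusted p of 1.43e-06. It was called lower than each parent as well.

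In all, 4 of 8 genes were called against the mid-parent, 3 lower and 1 higher, beside 10.5% and 16.3% of all loci, 26.8% together. With quantile scaling 46.1% of all calls in this comparison were higher, in place of 60.8%. PIP2-7 was -0.66 ± 0.16 (log2, SE, lower at 15 of 17 times, adjusted p = 0.003) and PIP1-2 -0.33 ± 0.09 (15 of 17 times, 0.00839). Both were called lower than SE21s and neither was called against MH86. On the first day alone neither passed against the mid-parent, PIP2-7 at -0.43 (adjusted p = 0.235) and PIP1-2 at -0.34 (0.14). PIP1-2 did not pass on the second day alone either (-0.30, 0.205). PIP2-6 was 0.42 ± 0.15 higher (12 of 17 times, 0.0311), a call that was lost without ZT3 (0.0602), ZT9 (0.0613), ZT12 (0.0605), ZT18 (0.0588), ZT33 (0.0864), ZT36 (0.0506) or ZT45 (0.054) and with no expression filter (0.0564).

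**Figure D5:**
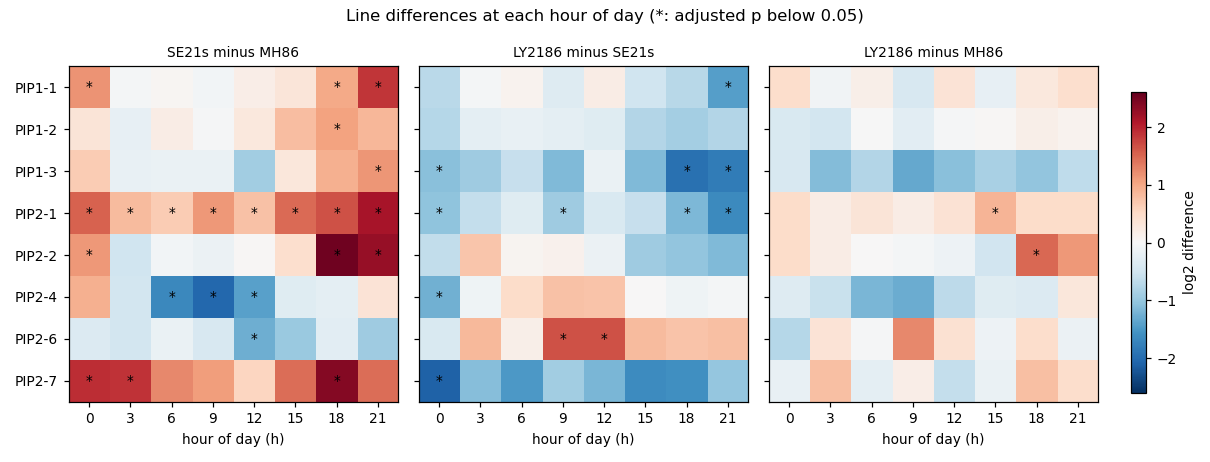
Difference in log2 units between lines for each gene (rows) at each hour of day (columns, h), in 3 panels, with red for higher in the line named first, blue for lower, and a star where the adjusted p is below 0.05. The darkest red between SE21s and MH86 falls at hours 18, 21 and 0, and PIP2-1 is starred at all 8 hours.

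Line differences were placed in the day by contrasts at each of the 8 hours, with 2 libraries per line and hour, or 3 at hour 0, and adjustment over all loci and hours. Between the parents 23 of 64 pairs of a gene and an hour were called, 19 higher and 4 lower in SE21s. Over all loci 21.9% of such pairs were called, 10.2% higher and 11.7% lower. At hours 18, 21 and 0, where calls were more common over all loci too (31.6%), 13 of the 24 pairs of the 8 genes were called. These were the hours with the most calls of the 8 genes (5, 4 and 4), so the count describes them and is no test of timing. PIP2-1 was called at all 8 hours, from 0.66 ± 0.22 at hour 6 to 2.14 ± 0.22 at hour 21 (log2, SE). The hour 6 difference was 0.40 (adjusted p = 0.453) without ZT30 and 0.53 (0.101) with quantile scaling, and that of hour 3, 0.82 ± 0.22, was 0.64 (0.146) without ZT27 and 0.61 (0.0556) with quantile scaling. At hour 21 its SE21s libraries held 232 and 218 FPKM and its MH86 libraries 50.1 and 51.2 FPKM, so that the lines did not overlap (adjusted p = 5.77e-09).

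PIP1-1 held 376 and 547 FPKM in SE21s at hour 21 and 136 and 114 FPKM in MH86, a difference of 1.86 ± 0.33 (log2, SE, adjusted p = 6.74e-05). At hour 3 the same gene averaged 1054 FPKM in SE21s and 1086 FPKM in MH86 and was not called. PIP2-2 held 20.1 and 20.9 FPKM in SE21s at hour 18 and 2.77 and 3.56 FPKM in MH86, a difference of 2.53 ± 0.45 (6.65e-05). These values describe a rise that stood higher in SE21s before the peak, while at hour 3 neither PIP1-1 nor PIP2-2 was called.

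PIP2-4 and PIP2-6 accounted for the lower calls. PIP2-4 held 0.114 and 0 FPKM in SE21s at hour 9 and 1.49 and 2.14 FPKM in MH86, a difference of -2.05 ± 0.43 (log2, SE, adjusted p = 0.000481). It was also lower at hour 6 (1.61 against 6.09 FPKM, 0.00397) and hour 12 (0 against 0.905 FPKM, 0.0147). PIP2-6 was lower at hour 12, at 1.89 against 4.89 FPKM (0.0375). Without 1 of their own libraries these calls were lost, PIP2-4 without ZT33 at hour 9 (-1.70, 0.0529), without ZT6 at hour 6 (-1.26, 0.134) and without ZT12 at hour 12 (-0.95, 0.294), and PIP2-6 without ZT36 (-0.65, 0.539).

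PIP2-7 was called at hours 18, 0 and 3, outside the hours of its peak. At hour 18 it held 38.0 and 60.9 FPKM in SE21s and 17.2 and 4.42 FPKM in MH86, a difference of 2.38 ± 0.66 (log2, SE, adjusted p = 0.00793), which without ZT42 was 1.12 (0.428). Near the peak, at hour 12, the libraries of SE21s (758 and 1172 FPKM) and MH86 (813 and 503 FPKM) overlapped. Leaving out each time in turn, 7 of the 23 calls always held, those of PIP2-1 at hours 0, 15, 18 and 21, of PIP1-1 at hours 0 and 21 and of PIP2-2 at hour 18. The other 16 were each lost without 1 of the times at that hour.

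LY2186 and SE21s differed in 12 of 64 pairs, 10 lower and 2 higher in LY2186, against 11% over all loci, 4.54% lower and 6.5% higher. At hours 18, 21 and 0 there were 9 calls, in 2, 3 and 4 of the 8 genes, beside 16.8% of pairs over all loci. That count again is no test of timing. With each time left out in turn, 3 of the 12 calls always held, those of PIP2-1 at hours 0, 18 and 21. The other 9 were each lost without at least 1 time. PIP2-1 held 66.1 and 76.5 FPKM in LY2186 at hour 21, against 232 and 218 FPKM in SE21s, a difference of -1.65 ± 0.22 (log2, SE, adjusted p = 2.56e-06). PIP1-3 held 4.14 and 8.22 FPKM at hour 18, against 21.4 and 26.9 FPKM, a difference of -1.94 ± 0.40 (0.00102), which was -1.65 (0.0613) without ZT18. The higher calls were PIP2-6 at hour 9 (14.8 against 4.44 FPKM, 0.0115) and hour 12 (6.64 against 1.89 FPKM, 0.0113), and these were 1.22 (0.288) without ZT33 and 1.30 (0.223) without ZT36.

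LY2186 and MH86 differed in 2 of 64 pairs, both higher in LY2186, against 4.73% over all loci. PIP2-1 at hour 15 averaged 21.7 against 11.6 FPKM (0.87 ± 0.22, log2, SE, adjusted p = 0.0156), a difference of 0.74 (0.308) without ZT15 and 1.01 (0.0887) without ZT39. PIP2-2 at hour 18 averaged 10.4 against 3.16 FPKM (1.497 ± 0.450, 0.049), and 12 of the 17 leave-outs ended its call, with 1.18 (0.449) without ZT42. The number of calls without 1 time ran from 1 to 4, the highest without ZT21.

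The second day was set against the first at the same hours, over 24 pairs of libraries. limma called 0 of 8 genes, against 42% of all loci (25.5% higher and 16.5% lower), and 1 gene, PIP2-6, had an unadjusted p below 0.05. PIP2-6 averaged 11.6 FPKM on the second day and 13.3 FPKM on the first, a difference of -0.29 ± 0.12 (log2, SE, lower in 16 of 24 pairs, adjusted p = 0.0531). It was called with a pseudocount of 0.1 (0.0488), a mean of at least 5 FPKM (0.049), median-ratio scaling (0.021) and quantile scaling (0.0376), and without ZT6 or ZT30 (-0.35, 0.0315) or ZT15 or ZT39 (-0.37, 0.0307). PIP2-7 averaged 195 against 233 FPKM, a difference of -0.32 ± 0.18 (0.148), and was called without ZT3 or ZT27 (-0.46, 0.0387). Differences of the other 6 genes lay between -0.01 and 0.16, and the median of the 8 was 0.01, beside 0.04 over all loci.

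Likeness between the genes was described by Pearson's r of log2(FPKM + 0.5) over the 51 libraries, which share the daily cycle, so r is high for any genes that peak together. Among the 15 pairs of the 6 genes with peaks in the first hours, r ran from 0.588 to 0.951 with a median of 0.845. PIP1-2 and PIP2-1 were the most alike at 0.951. PIP2-7 had an r between -0.534 and 0.0809 with the same 6, and PIP2-6 between -0.271 and 0.0824, pooled over lines whose levels differ. Within lines the values went different ways. PIP2-6 had an r of 0.117 to 0.499 with the 6 in SE21s, -0.541 to -0.194 in LY2186 and -0.459 to 0.0877 in MH86. PIP2-7 had an r of -0.745 to -0.280 in SE21s, -0.560 to 0.184 in LY2186 and -0.535 to 0.356 in MH86, where the highest in each line was with PIP2-4.

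Of all loci tested, those with the most similar pattern over the 51 libraries were LOC_Os07g46330 for PIP2-1 (r = 0.981), LOC_Os02g57160 for PIP1-2 (0.961), LOC_Os03g10080 for PIP1-1 (0.958) and LOC_Os03g20640 for PIP2-7 (0.958). For PIP2-2 it was LOC_Os02g13970 (0.932), for PIP1-3 LOC_Os03g13560 (0.907) and for PIP2-4 LOC_Os05g25840 (0.905). Among all loci, PIP2-2 was more like PIP1-1 (0.946) than like that locus. PIP2-6 had the loosest match, LOC_Os07g08220 at 0.759. In the RefSeq gene table of assembly ASM3414082v1, PIP2-4 and PIP2-1 lie on chromosome 7 with 2 genes between them, one of which is PIP2-5. Their mean levels in SE21s were 1.19 and 204 FPKM. Reads that match several of these similar genes could be split between them, and how the authors treated such reads is not given in the sources used here.

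Other aquaporin loci were listed from general knowledge of rice genes and are named by identifier only. Of 19 listed, 17 were in the table and 11 passed the filter, namely 6 loci of the vacuolar (tonoplast) class and 5 of the nodulin 26-like and small basic classes. A 24 h curve was called in 9 of the 11 in SE21s, 7 in LY2186 and 9 in MH86, beside the 67.5%, 71.1% and 72.1% over all loci, with median amplitudes of 0.98, 1.05 and 1.13 (log2). In SE21s the smallest adjusted p-values belonged to LOC_Os03g05290 (peak at 3.07 h, 5.28e-08), LOC_Os10g36924 (1.09 h, 8.92e-08), LOC_Os06g22960 (5.41 h, 6.57e-06) and LOC_Os01g74450 (5.51 h, 9.61e-06). The vacuolar locus LOC_Os05g14240, the most abundant of them at 148 FPKM in SE21s, had fitted peaks at 12.8 h (SE21s) and 12.5 h (MH86).

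Between the parents, SE21s was higher in 4 of the 11 and lower in 1, beside 28.6% and 40.4% of all loci, with a median difference of 0.08 (log2). LOC_Os01g13120 was 1.42 ± 0.23 higher (11.1 against 4.09 FPKM, adjusted p = 1.31e-06), LOC_Os10g36924 0.88 ± 0.16 higher (7.24e-06) and LOC_Os01g74450 0.79 ± 0.22 higher (0.00196), while LOC_Os05g11560 was -0.71 ± 0.15 (9.82e-05). LY2186 was higher than SE21s in 2 and lower in 3 (32.8% and 24.5% over all loci), higher than MH86 in 3 and lower in 0 (14.8% and 17.6%), and against the mid-parent higher in 2 and lower in 1 (16.3% and 10.5%). LOC_Os06g12310 led the last of these, at 0.61 ± 0.18 (45.3 against 30.1 FPKM, adjusted p = 0.0118). The daily curve differed between the parents in 2 of the 11, LOC_Os10g36924 (adjusted p = 0.000254) and LOC_Os02g51110 (0.0244), beside 27.5% of all loci. It differed in 1 between LY2186 and SE21s, LOC_Os02g51110 (0.0369), beside 12.6%, and in 1 between LY2186 and MH86, LOC_Os10g36924 (0.0425), beside 2.33%. On the second day 2 were higher and 3 lower than on the first (25.5% and 16.5% over all loci), led by LOC_Os03g20410 at -0.35 ± 0.07 (0.00052). The further plasma membrane loci in the table, LOC_Os07g26660 and LOC_Os04g44060, had means of at most 0.557 FPKM in any line and were not tested. LOC_Os03g64330 and LOC_Os04g46490 were listed but absent from the deposited expression table.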

How the data were processed

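The authors deposited 1 table of FPKM values for 51 libraries, made with TopHat2 and Cuffdiff per the submitters' processing notes, from strand-specific libraries per the labels' protocols. Tool versions, genome build and annotation are not given in the sources used, so no coordinates are printed. Depth per library is unknown, and low values put relative depths within 2.53-fold. An exact 0 can be a failed estimate, and no doubtful 0 (2 or more neighbouring values of at least 10 FPKM) fell in the 8 genes, against 483 in other loci. The rule could not mark any in these genes, because only PIP2-4 was listed at 0 and its highest value was 8.51 FPKM. Whether its zeros are failed estimates is thus unknown.

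Values were analysed as log2(FPKM + 0.5) for loci with a mean of at least 1 FPKM, so fold changes of low genes are understated. limma 3.58.1 in R 4.3.3 was fitted over all 16842 loci with a trended, robust prior; tests were two-sided and p-values adjusted by Benjamini-Hochberg, with calls at 0.05. Rhythm used 24 h cosine and sine terms within a line, levels a time point block, rhythm differences line by cosine and sine terms beside that block, and days a line by hour block. The block pairs libraries of the same labelled time, and their deviations from line means correlated across genes at 0.318 or more in every pair. Those deviations still hold the daily cycle, which libraries of the same hour share, so the correlation does not test the pairing. Members and lists were chosen with earlier results of these data known. Named loci are all 8 members and, of other aquaporin loci, up to 4 per comparison with the smallest adjusted p, with LOC_Os05g14240 added after its values were seen, for its level. Steps were tested on simulated data. Alternatives changed the pseudocount, filter, scaling, prior, curve, block, days and times. Python 3.11.15 and matplotlib 3.10.9 drew the figures. Symbols were given together with the locus identifiers. The RefSeq table held 8 of 8 symbols as synonyms, but its identifiers are not those of the deposited table, so it does not check which locus carries which symbol.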

Additional observations from a re-analysis of the deposited data

Results flagged for a closer look

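The daily curve differed between lines in 10 results, each by the interaction test described above. Between SE21s and MH86 these were PIP2-4 (adjusted p = 3.79e-05), PIP2-2 (0.000474), PIP1-1 (0.000633), PIP2-1 (0.000852), PIP1-2 (0.00771) and PIP1-3 (0.00837), and all 6 had an earlier fitted peak in SE21s. Between LY2186 and SE21s they were PIP2-4 (0.0191), PIP2-1 (0.0247), PIP1-1 (0.0334) and PIP2-6 (0.0439). Those between SE21s and MH86 held without any 1 time, and the number of those between LY2186 and SE21s ran from 1 to 4.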

How the results depend on the processing

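With the replicate block (time point) removed from the level tests, the spread of each gene held its whole daily curve. Calls of level then fell from 7 to 1 between SE21s and MH86 and to 0 in each of the 3 comparisons of LY2186. The rhythm difference test without that block kept a shared 24 h curve in the model, and its calls between LY2186 and SE21s fell to 0. On the first day alone level calls were 4 (SE21s against MH86), 1 (LY2186 against MH86) and 2 (mid-parent), and rhythm difference calls of LY2186 against SE21s 1. On the second day alone they were 4, 1, 2 and 0, and rhythm differences between the parents fell to 1. With no filter the LY2186 against SE21s rhythm calls were 2. Hour calls between LY2186 and MH86 were 1 with a pseudocount of 1, no filter, a mean of at least 5 FPKM or a plain prior, and 4 with quantile scaling. Day calls were 1 with a pseudocount of 0.1, a mean of at least 5 FPKM or median-ratio scaling, and 2 with quantile scaling. The cause of these changes was not tested.

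Leaving out 1 time gave 1 to 4 rhythm difference calls of LY2186 against SE21s, 1 to 4 hour calls of LY2186 against MH86 and 0 to 1 day calls. Signs turned in values that were not called. PIP2-4 of LY2186 against SE21s was 0.15 with a pseudocount of 0.1 and 0.081 on the second day, and -0.082 to 0.13 without 1 time. PIP1-3 between the parents was -0.17 on the first day, PIP2-7 of LY2186 against MH86 -0.19 on the second, and PIP2-2 against the mid-parent 0.015 on the first and -0.064 to 0.074 without 1 time. Day differences turned for PIP1-2 (median-ratio -0.0069, MH86 alone -0.033, without 1 time -0.066 to 0.10), PIP1-3 (SE21s alone 0.36, -0.064 to 0.095), PIP2-1 (median-ratio -0.033, LY2186 alone -0.12, MH86 alone -0.052, -0.050 to 0.057), PIP2-2 (median-ratio -0.032, LY2186 alone -0.043, MH86 alone -0.055, -0.043 to 0.10) and PIP2-4 (pseudocount 0.1 0.11, quantile 0.0026, LY2186 alone 0.073, -0.081 to 0.061). In linear FPKM the order turned, with PIP2-1 minus PIP2-7 at -99.9 FPKM in SE21s and -30.3 FPKM in LY2186 and PIP1-3 minus PIP2-7 at -99.7 FPKM in MH86. Of 1523 values and counts of calls under alternatives other than leaving out a time, 1387 were classed as the same. For a value this meant the same side of the threshold and, where it has a sign, the same direction. A count of calls was classed as the same also when it moved by a small factor. The unknown depth limits the precision of every value.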
